A study of Mus musculus with 8 samples.

Results

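The interferon response genes are the genes that cells switch on after sensing an interferon, a secreted alarm protein. Of 40 such genes chosen for this description, 34 were measured in skin of newborn mice with pRb, p53, both or neither inactivated in the epithelium. All probe sets annotated with one of these genes as their single symbol were taken, 49 of 22690 on the array, where 20393 probe sets carry 1 symbol and stand for 12394 genes. The other 6 were Isg15, whose probe set carries a second symbol, and Ddx58, Dtx3l, Ifi44, Xaf1 and Ifi27, whose symbols no probe set carried in the annotation used.

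The RNA came from whole skin of newborn FVB mice, an inbred strain. There were 4 genotypes: control, pRb-/-;p53+/+ (pRb_null), pRb+/+;p53-/- (p53_null) and pRb-/-;p53-/- (double_null). Each genotype had 2 arrays, and each array held RNA pooled from 3 animals. The Rb1 and Trp53 genes were inactivated in stratified epithelia, per the series title, so dermis, muscle, vessels and immune cells of the extract are outside the targeted tissue. The alleles, the Cre driver and the genotype of the control animals beyond that word are not stated in the sources used, nor is it stated whether the 2 pools of a genotype were separate animals. The p-values below therefore measure the spread between arrays, which may be technical.

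Type I interferons, such as interferon alpha and beta, act through the receptor Ifnar and a complex that holds Stat2 and Irf9 and binds a promoter element called the ISRE. Interferon gamma, made mainly by T and NK cells, acts through the receptor Ifngr, and its signal is read at an element called the GAS. The first route is known for antiviral effectors that block viral RNA and protein synthesis, and the second for guanylate-binding proteins, immunity-related GTPases, chemokines and the antigen processing machinery. Many genes respond to both. In skin, keratinocytes, macrophages and Langerhans cells can all respond. The members are described in 3 sets: 10 genes of signalling and sensing (8 measured, 11 probe sets), 18 antiviral effectors (14 measured, 20 probe sets) and 12 genes of the interferon-gamma type (12 measured, 18 probe sets).

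Every probe set's deposited scores average 0 and have an SD of 1 across the arrays. All scores and differences are in units of that SD. They carry no expression level, so levels of different genes cannot be compared, no fold change can be given, and a probe set that detected nothing also spans the same range. Between 2 groups of 2 arrays a difference cannot exceed 2.65. For the same reason the presence of skin could not be checked from keratin levels. The only probe set of Rb1 scored from −0.71 to 0.44 in pRb_null, from −1.90 to −0.55 in double_null, from 0.80 to 1.20 in control and from 0.22 to 0.50 in p53_null. Its difference from control was −1.14 ± 0.65 (SE) in pRb_null and −2.23 ± 0.65 in double_null, with adjusted p = 0.63 and adjusted p = 0.20 by limma, and its place relative to the deleted part was not known, so it checks no label. Trp53 was not analysed here. The 64 control probe sets of the array design had median differences from control between 0.71 and 0.87 in the mutant groups, with 16 to 18 higher and 0 to 2 lower at an unadjusted p under 0.05, and their part in the comparisons with control was not tested.

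Interferon response genes scored highest in double_null and lowest in p53_null. The median score of the 49 probe sets was 0.47 and 0.98 in the double_null arrays, −0.52 and −0.55 in p53_null, 0.03 and −0.12 in pRb_null, and −0.14 and −0.36 in control. Both double_null arrays were above the other 6, and both p53_null arrays below them. This order held for signalling and sensors and for the interferon-gamma type, whereas the antiviral effectors had their lowest median in a control array, at −0.59. Among single probe sets, double_null had the highest mean of the genotypes in 29 of 49 (59.2%), where the share over all 22690 probe sets was 26.8%. In p53_null the mean was the lowest in 25 of 49 (51%), against 27.3% of all probe sets. In 16 probe sets of 12 genes both double_null arrays scored above all other arrays (32.7%, against 7.84% of all probe sets), and in 13 probe sets of 11 genes both p53_null arrays scored below all others (26.5%, against 7.78%).

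**Figure D1:**
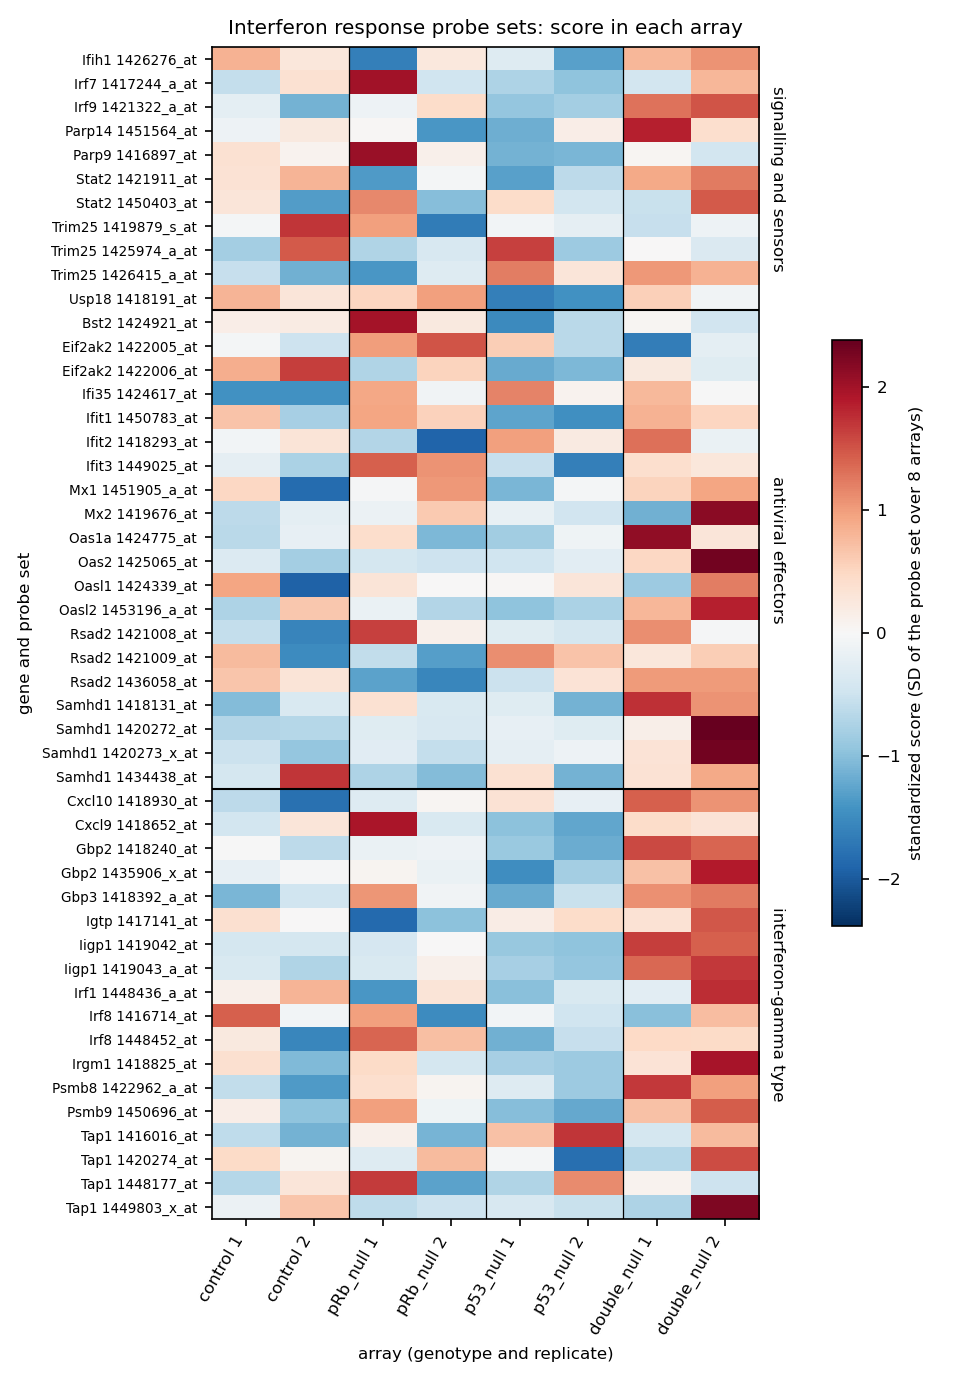
Standardized score of each of the 49 member probe sets (rows, by gene and set) in each of the 8 arrays (columns), in SD of the probe set over the arrays, with red above 0 and blue below. The double_null columns hold 38 of 49 scores above 0 in each array, and the p53_null columns 12 and 10.

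The first question was which interferon response genes differ between double_null and control skin. Most scored higher in double_null. Of the 49 probe sets, 39 (79.6%) had a difference above 0, as had 49.9% of all probe sets, and the median difference was 0.93, against −0.006 over all. The groups did not overlap in 26 probe sets that were higher (53.1%, against 25.1% of all) and in 4 that were lower (8.16%, against 26.1%). An unadjusted p under 0.05 was reached by 13 higher (26.5%, against 8.77%) and 0 lower (against 9.91%). In limma's test without moderation 1 member probe set, of Iigp1, passed the adjusted threshold of 0.05 over all probe sets (2.04%, against 0.322% of all higher), and 0 were lower (against 0.524%). Limma's moderated test called 0 members, with 13 at an unadjusted p under 0.05. The median difference was 1.27 for the interferon-gamma type, 0.88 for the antiviral effectors and 0.38 for signalling and sensors. In the same order, the sets had median scores of 0.45, 0.45 and 0.57 in double_null replicate 1. In double_null replicate 2 they were 1.41, 0.75 and 0.80, so the interferon-gamma type stood apart in that array only. Without double_null replicate 2 the median of all members was 0.66 and without double_null replicate 1 it was 1.29.

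The genes of the interferon-gamma type held 7 of the 13 probe sets with an unadjusted p under 0.05. These were 7 of their 18 probe sets (38.9%, against 8.77% of all), from 5 genes, since Iigp1 and Gbp2 counted more than once. The antiviral effectors had 4 of 20 (20%) and signalling and sensors 2 of 11 (18.2%). Iigp1 encodes an immunity-related GTPase that disrupts the vacuoles of intracellular parasites. Its probe set 1419042_at scored 1.65 and 1.43 in double_null, −0.42 and −0.42 in control, −0.90 and −0.96 in p53_null, and −0.40 and 0.013 in pRb_null. The double_null arrays stood apart from the other 6, and the p53_null arrays were the lowest. Iigp1 rose in double_null by 1.96 ± 0.17 over control (limma, adjusted p = 0.04). That call was lost when any 1 of the 8 arrays was left out, with adjusted p from 0.084 to 0.20, under quantile normalization (adjusted p = 0.10) and with array medians set to 0 (adjusted p = 0.085), while the difference stayed between 1.85 and 2.07. With the replicate number as a block its adjusted p was 0.13, and with the moderated test adjusted p = 0.19. The second probe set, 1419043_a_at, correlated with the first over the 8 arrays (r = 0.98) and differed by 2.07 ± 0.25 (adjusted p = 0.066). It scored 1.37 and 1.69 in double_null, −0.36 and −0.72 in control, −0.79 and −0.93 in p53_null, and −0.37 and 0.11 in pRb_null. Mice carry close copies of this gene, so the probe sets may not be specific to it.

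The guanylate-binding proteins, interferon-induced GTPases that attack pathogen membranes, ran the same way. Gbp2 by 1418240_at scored 1.57 and 1.39 in double_null, −0.011 and −0.63 in control, −0.88 and −1.17 in p53_null, and −0.15 and −0.12 in pRb_null. No array of another genotype reached the double_null scores, and the difference from control was 1.80 ± 0.25 (adjusted p = 0.082). Its other probe set, 1435906_x_at, ran alike (r = 0.86), with 0.70 and 1.90 in double_null, −0.19 and −0.034 in control, −1.48 and −0.81 in p53_null, and 0.071 and −0.15 in pRb_null. Gbp3 scored 1.10 and 1.23 in double_null, −1.09 and −0.48 in control, −1.21 and −0.53 in p53_null, and 1.06 and −0.079 in pRb_null, 1.95 ± 0.52 above control (adjusted p = 0.18). Here 1 pRb_null array nearly reached the double_null arrays. The family is one of similar sequences, and which member a probe set reads is uncertain.

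The chemokine Cxcl10 attracts activated T cells. Its scores were 1.43 and 1.06 in double_null, −0.62 and −1.78 in control, 0.35 and −0.19 in p53_null, and −0.31 and 0.051 in pRb_null. The double_null arrays were highest and the control arrays lowest, without overlap, and the difference of 2.45 ± 0.49 was the largest of all members in this comparison (adjusted p = 0.13). Cxcl9, a chemokine for the same receptor, did not share this pattern, with 0.43 and 0.33 in double_null, −0.43 and 0.28 in control, −0.97 and −1.24 in p53_null, and 1.96 and −0.36 in pRb_null. Its highest score was in a single pRb_null array, and its p53_null arrays were the lowest.

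Psmb8 and Psmb9 encode inducible subunits of the immunoproteasome, which cuts proteins into peptides for MHC class I. Psmb8 scored 1.69 and 0.98 in double_null, −0.59 and −1.35 in control, −0.31 and −0.86 in p53_null, and 0.39 and 0.059 in pRb_null, 2.31 ± 0.43 above control (adjusted p = 0.12). Psmb9 scored 0.71 and 1.44 in double_null, 0.17 and −0.95 in control, −1.02 and −1.22 in p53_null, and 0.97 and −0.099 in pRb_null. For Psmb8 double_null stood above every other array, whereas for Psmb9 a pRb_null array lay between the double_null arrays. Tap1, the peptide transporter of the same route, had 4 probe sets that disagreed, with r from −0.65 to 0.68 over the arrays. Probe set 1416016_at had its highest mean in p53_null, at 0.70 and 1.70, and 1449803_x_at was highest in a single double_null array, at 2.23, so no single pattern can be given for Tap1. The scores of the other 2 ranged from −1.80 to 1.56 and from −1.27 to 1.67.

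**Figure D2:**
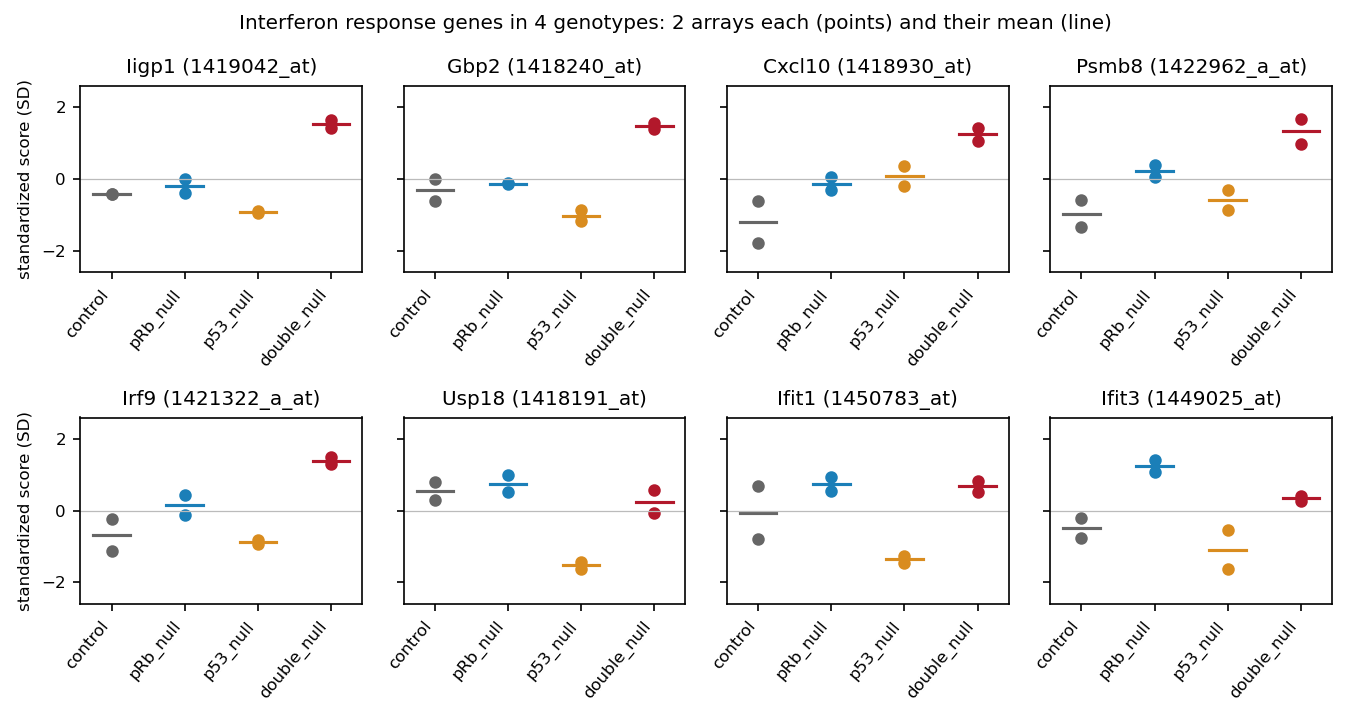
Standardized scores (SD) of 8 member genes, selected after their values were seen, in the 4 genotypes, with 2 arrays per genotype as points and their mean as a line. In the plots of Iigp1, Gbp2, Cxcl10, Psmb8 and Irf9 both double_null points lie above all others, and in those of Usp18 and Ifit1 both p53_null points lie below all others.

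Among the remaining genes of the interferon-gamma type, 1 double_null array often carried the mean. Irgm1, a GTPase of autophagic defence, scored 0.32 and 1.97 in double_null, 0.38 and −1.06 in control, 0.46 and −0.42 in pRb_null, and −0.79 and −0.86 in p53_null. Irf1, the transcription factor that interferon gamma induces first, scored −0.25 and 1.77 in double_null, 0.12 and 0.81 in control, −1.38 and 0.30 in pRb_null, and −0.999 and −0.37 in p53_null. In both genes double_null overlapped control. Igtp, another GTPase of the family, had its low scores in pRb_null, at −1.84 and −0.97, with 0.38 and 0.0098 in control, 0.17 and 0.44 in p53_null, and 0.34 and 1.47 in double_null. Irf8, a factor of the myeloid lineage that interferon gamma also induces, had 2 probe sets that hardly agreed (r = 0.13), and neither separated double_null from the rest. Their scores ranged from −1.502 to 1.42 (1416714_at) and from −1.56 to 1.39 (1448452_at).

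Of the genes with the smallest p in this comparison, the promoters of 4 that hold a motif are shown, because the response is classically read out through the ISRE and the GAS. The ISRE core was searched as 2 copies of GAAA with any 2 bases between them, and the GAS as TTC and GAA with any 3 between, on both strands, in RefSeq windows (GRCm38.p6) from 250 bases before to 50 bases after each start. Of the 34 measured members 27 had a window, 13 of them with an ISRE core (48.1%) and 10 with a GAS (37%), against 3.99% and 9.55% of the 27025 genes with windows. By set, the ISRE core was found in 6 of 11 antiviral effectors, 5 of 11 genes of the interferon-gamma type and 2 of 5 genes of signalling and sensors, and the GAS in 6, 4 and 0. Iigp1 had no window, and the 2 windows of Irf9 held neither motif. A match is a description of the letters and not a site. The windows below are those of Gbp2 (chr3:142620413-142620712, plus strand), Cxcl10 (chr5:92348840-92349139, minus strand), Psmb8 (chr17:34197945-34198244, plus strand) and Samhd1 (chr2:157135047-157135346, minus strand), read 5′ to 3′, with the motif in capitals. Gbp2 holds the reverse complement of the ISRE core from base −59 to −50, counted from its start, Cxcl10 the forward core from −213 to −204, and Psmb8 and Samhd1 a GAS from −97 to −89 and from −235 to −227.
Gbp2: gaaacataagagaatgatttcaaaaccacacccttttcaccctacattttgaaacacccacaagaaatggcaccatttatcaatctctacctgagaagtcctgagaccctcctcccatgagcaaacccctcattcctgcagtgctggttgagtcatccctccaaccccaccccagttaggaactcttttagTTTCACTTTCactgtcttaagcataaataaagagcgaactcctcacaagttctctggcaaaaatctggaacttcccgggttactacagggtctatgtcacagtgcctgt
Cxcl10: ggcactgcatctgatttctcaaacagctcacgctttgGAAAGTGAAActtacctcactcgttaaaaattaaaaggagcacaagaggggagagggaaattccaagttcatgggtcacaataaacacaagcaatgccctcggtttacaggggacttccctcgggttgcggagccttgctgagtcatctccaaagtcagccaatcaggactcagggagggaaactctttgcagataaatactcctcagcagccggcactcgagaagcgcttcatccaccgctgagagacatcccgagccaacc
Psmb8: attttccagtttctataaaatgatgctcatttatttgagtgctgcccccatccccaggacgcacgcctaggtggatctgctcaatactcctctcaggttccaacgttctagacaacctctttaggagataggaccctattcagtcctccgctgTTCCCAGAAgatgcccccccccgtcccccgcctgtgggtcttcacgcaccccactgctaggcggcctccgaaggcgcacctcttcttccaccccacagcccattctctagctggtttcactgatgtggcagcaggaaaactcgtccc
Samhd1: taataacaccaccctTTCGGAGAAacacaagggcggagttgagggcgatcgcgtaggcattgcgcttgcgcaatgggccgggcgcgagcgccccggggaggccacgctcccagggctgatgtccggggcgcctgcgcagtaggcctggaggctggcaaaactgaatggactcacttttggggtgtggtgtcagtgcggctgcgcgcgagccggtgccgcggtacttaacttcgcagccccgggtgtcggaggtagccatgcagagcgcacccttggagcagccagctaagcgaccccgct

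The antiviral effectors were less uniform. In double_null, 16 of their 20 probe sets were above control (against 49.9% of all probe sets), 11 without overlap (against 25.1%), and 4 were higher at an unadjusted p under 0.05 (against 8.77%). Samhd1 hydrolyses the nucleotides that viruses need to copy themselves. By 1418131_at it scored 1.74 and 1.07 in double_null, −1.03 and −0.36 in control, −0.29 and −1.13 in p53_null, and 0.37 and −0.36 in pRb_null, 2.10 ± 0.52 above control (adjusted p = 0.17). Its probe sets 1420272_at and 1420273_x_at were dominated by 1 double_null array, at 2.38 and 2.30, with the other at 0.14 and 0.32. In the fourth probe set of Samhd1, 1434438_at, double_null overlapped control, and both pRb_null arrays lay below both groups.

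The OAS family makes the second messenger that activates RNase L. Oas2 scored 0.50 and 2.30 in double_null, −0.33 and −0.81 in control, −0.48 and −0.26 in p53_null, and −0.42 and −0.49 in pRb_null. The other 6 arrays lay close together, and the double_null arrays were higher but far apart. Oasl2 also had its highest scores in double_null, at 0.80 and 1.85, and Oas1a had 2.11 in 1 double_null array and 0.29 in the other. Oasl1 separated no genotype. Mx2, a dynamin-like GTPase, scored −1.14 and 2.15 in the double_null arrays, the lowest and the highest of all 8. Mx1, the related GTPase that is nonfunctional in most inbred mouse strains, scored 0.52 and 0.94 in double_null, 0.50 and −1.83 in control, −0.028 and 1.03 in pRb_null, and −1.08 and −0.042 in p53_null. Both double_null arrays were above control and p53_null, the former by a narrow margin, and overlapped pRb_null.

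Ifi35, a scaffold protein of the response, separated all mutants from control. It scored 0.77 and −0.0089 in double_null, −1.44 and −1.44 in control, 1.19 and 0.093 in p53_null, and 0.91 and −0.076 in pRb_null. The control arrays were the lowest by more than 1 SD, and the differences from control were 1.86 ± 0.59 in pRb_null, 2.08 ± 0.59 in p53_null and 1.82 ± 0.59 in double_null (adjusted p = 0.42, 0.27 and 0.23). The median difference of the array's control probe sets from control, given above, was also above 0 in all mutants. Rsad2 encodes viperin, which makes a chain-terminating nucleotide, and its 3 probe sets disagreed (r from −0.29 to 0.48). Probe set 1436058_at scored 1.02 and 1.02 in double_null, 0.67 and 0.31 in control, −0.52 and 0.32 in p53_null, and −1.27 and −1.55 in pRb_null, whereas 1421008_at was highest in a pRb_null array, at 1.64, and lowest in a control array, at −1.58. The third ranged from −1.51 to 1.10. Eif2ak2, the kinase PKR that stops translation, likewise had 2 probe sets that ran apart (r = −0.16). Ifit2, of the family that binds foreign RNA caps, was lowest in pRb_null, at −0.69 and −1.91.

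Of the genes of signalling and sensing, Irf9, the DNA-binding part of the type I complex, separated best. It scored 1.298 and 1.496 in double_null, −0.23 and −1.13 in control, −0.93 and −0.82 in p53_null, and −0.12 and 0.44 in pRb_null. Both double_null arrays were above all others, 2.08 ± 0.38 above control (adjusted p = 0.12). Its partner Stat2 by 1421911_at scored 0.90 and 1.24 in double_null, 0.35 and 0.81 in control, −1.29 and −0.63 in p53_null, and −1.34 and −0.038 in pRb_null. Both single-loss genotypes lay below control and double_null just above it, but the other probe set of Stat2, which ranged from −1.34 to 1.46, did not follow (r = −0.21). Trim25, a ubiquitin ligase that activates the RNA sensor RIG-I, had 3 probe sets in disagreement (r from −0.51 to 0.37), and 1426415_a_at differed from control by 1.79 ± 0.55 (adjusted p = 0.22). That probe set scored 1.04 and 0.83 in double_null, −0.55 and −1.15 in control, 1.23 and 0.30 in p53_null, and −1.38 and −0.31 in pRb_null.

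The second question was what loss of p53 alone does. Interferon response genes tended to lower scores in p53_null than in control, without any passing the adjusted threshold. In 19 of 49 the difference was above 0 (38.8%, against 45.7% of all probe sets), the median difference was −0.32, against −0.15 over all, and the groups did not overlap in 20 probe sets that were lower (40.8%, against 28.9% of all) and 7 that were higher (14.3%, against 23.8%). With array medians set to 0 the median difference was −0.22, against −0.046 over all, and 22 of 49 were above 0. By limma, 0 of 49 were called, against 0.0353% of all higher and 0.0837% lower. An unadjusted p under 0.05 was reached by 4 lower and 3 higher ones (8.16% against 7.23%, and 6.12% against 7.38% of all), a share near the background. These 7 were from 2 to 4 without any 1 array of control or p53_null, and the moderated test called 0, with 4 at that unadjusted p. By set, the median was −0.74 for signalling and sensors, −0.50 for the interferon-gamma type and 0.10 for the antiviral effectors. In the same order, 6 of 11, 10 of 18 and 4 of 20 were lower without overlap (54.5%, 55.6% and 20%, against 28.9% of all). Higher without overlap were 1, 2 and 4 (9.09%, 11.1% and 20%, against 23.8%). At an unadjusted p under 0.05 the sets had 1, 2 and 1 lower (9.09%, 11.1% and 5%, against 7.23%) and 1 higher each (9.09%, 5.56% and 5%, against 7.38%).

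Usp18, the protease that removes Isg15 from proteins and damps the type I receptor, had the smallest p. It scored 0.57 and −0.076 in double_null, 0.80 and 0.28 in control, −1.63 and −1.44 in p53_null, and 0.51 and 0.98 in pRb_null. The p53_null arrays were far below the other 6, and the difference from control was −2.08 ± 0.34 (adjusted p = 0.15). Ifit1, a sensor of foreign RNA ends, scored 0.83 and 0.52 in double_null, 0.68 and −0.79 in control, −1.26 and −1.47 in p53_null, and 0.95 and 0.55 in pRb_null. Bst2, which tethers budding virus to the cell, scored 0.052 and −0.46 in double_null, 0.16 and 0.20 in control, −1.53 and −0.64 in p53_null, and 1.98 and 0.23 in pRb_null. In all 3 genes the p53_null arrays were the lowest of the 8. Parp9, a partner of the ligase Dtx3l, had the same order at the bottom, with −1.12 and −1.09 in p53_null, as had Irf7, the master factor of interferon alpha production, which scored −0.43 and 0.80 in double_null, −0.57 and 0.37 in control, −0.73 and −0.97 in p53_null, and 2.01 and −0.47 in pRb_null. Eif2ak2 by 1422006_at scored 0.24 and −0.29 in double_null, 0.86 and 1.65 in control, −1.20 and −1.08 in p53_null, and −0.72 and 0.53 in pRb_null. Its p53_null arrays were the lowest and its control arrays the highest, and the difference from control was −2.39 ± 0.56 (adjusted p = 0.21).

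In pRb_null more of the interferon response probe sets lay above control than below it, without any passing the adjusted threshold. The counts without overlap and at an unadjusted p under 0.05 were near the background. The size of the median difference varied with the arrays and the scaling used. In 33 of 49 the difference was above 0 (67.3%, against 52.3% of all probe sets), with a median of 0.36, against 0.066 over all. That median was 0.052 without pRb_null replicate 1, 0.10 without control replicate 2, 0.18 under quantile normalization and 0.66 with 1 probe set per gene. The groups did not overlap in 13 probe sets that were higher (26.5%, against 22.7% of all) and 8 that were lower (16.3%, against 18.4%), which is close to the background. Limma called 0 of 49, as of all probe sets (0%), while an unadjusted p under 0.05 was reached by 2 higher and 2 lower ones (4.08% each, against 6.44% and 4.21%). These 4 were 11 without pRb_null replicate 2, 8 without control replicate 1, and 2 without either of the other 2 arrays of these groups. The moderated test called 0, with 5 at that unadjusted p. Ifit3, which stabilizes Ifit1 on RNA, was among the higher ones. It scored 0.40 and 0.28 in double_null, −0.22 and −0.76 in control, −0.56 and −1.63 in p53_null, and 1.42 and 1.07 in pRb_null. The pRb_null arrays were the highest and the difference was 1.73 ± 0.45 (adjusted p = 0.35). Rsad2 by 1436058_at went the other way, by −1.90 ± 0.34 (adjusted p = 0.26), and Igtp by −1.60 ± 0.53 (adjusted p = 0.44).

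**Figure D3:**
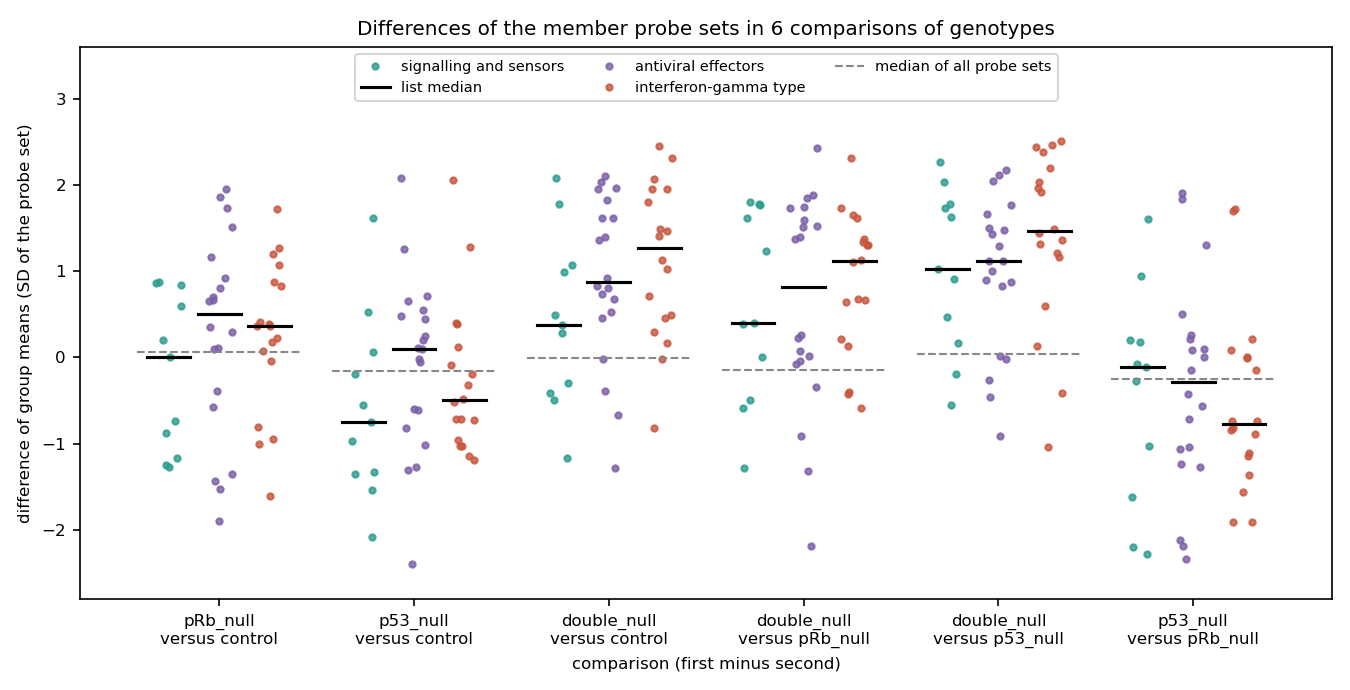
Difference of group means (first minus second genotype, in SD) of each member probe set in 6 comparisons, by set, with the set's median as a black line and the median of all 22690 probe sets as a dashed line. In double_null versus p53_null the set medians are 1.03, 1.12 and 1.47, against 0.035 over all probe sets.

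Setting double_null against each single loss asked what the second loss adds. Against p53_null, 41 of 49 probe sets were higher in double_null (83.7%, against 51% of all), with a median difference of 1.32, and 32 were higher without overlap (65.3%, against 24.3%). At an unadjusted p under 0.05, 15 were higher (30.6%, against 5.99%) and 0 lower (against 5.91%). Limma called 0 of the 49 (against 0.0132% of all higher and 0.022% lower), and the moderated test also called 0, with 16 at an unadjusted p under 0.05. The count of 15 was 9 without either p53_null array and 10 without double_null replicate 2. Iigp1 differed by 2.47 ± 0.17 (adjusted p = 0.079), Gbp2 by 2.51 ± 0.25 (adjusted p = 0.12), Irf9 by 2.27 ± 0.38 (adjusted p = 0.21) and Usp18 by 1.78 ± 0.34 (adjusted p = 0.24).

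Against pRb_null, 37 of 49 were above 0 (75.5%, against 46.5% of all), with a median difference of 1.11 against −0.15 over all probe sets. Without overlap, 23 were higher (46.9%, against 22.1%) and 5 lower (10.2%, against 28.1%). An unadjusted p under 0.05 was reached by 10 higher and 1 lower (20.4% against 7.71%, and 2.04% against 10.9%). Limma called 0 (against 0.15% of all higher and 0.256% lower) and so did the moderated test, with 12 at an unadjusted p under 0.05. This median rested on double_null replicate 2: it was 0.36 without that array, and 0.67 with 1 probe set per gene. The count of 11 was 4 without pRb_null replicate 1. Iigp1 differed by 1.73 ± 0.17 (adjusted p = 0.063), Gbp2 by 1.62 ± 0.25 (adjusted p = 0.11), Igtp by 2.31 ± 0.53 (adjusted p = 0.17) and Rsad2 (1436058_at) by 2.43 ± 0.34 (adjusted p = 0.096). These comparisons share the double_null arrays with each other and with the one against control.

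Skins with a single loss were also compared with each other. In p53_null, 18 of 49 probe sets were above pRb_null (36.7%, against 43.4% of all), with a median difference of −0.43 against −0.26 over all. Without overlap, 23 were below (46.9%, against 31.8%) and 7 above (14.3%, against 22.6%). Limma called 0 of them (against 0.0132% of all higher and 0.0441% lower), with 8 lower and 3 higher at an unadjusted p under 0.05 (16.3% against 9.41%, and 6.12% against 6.81%). The moderated test called 0, also with 11 at that unadjusted p. These 11 were 4 without p53_null replicate 2, 5 without p53_null replicate 1 and 6 without pRb_null replicate 1. Ifit3 differed by −2.34 ± 0.45 (adjusted p = 0.16), Usp18 by −2.28 ± 0.34 (adjusted p = 0.14) and Ifit1 by −2.12 ± 0.55 (adjusted p = 0.22). With array medians set to 0 the median of the members was −0.21 and that of all probe sets −0.032, and with 1 probe set per gene the members' median was −0.73.

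Whether the double loss differs from the sum of both single losses was tested by the interaction term, on the scale of the scores. Such a term depends on the scale, and whether logarithms were taken is not stated. It uses the same arrays as the comparisons above. The term was above 0 in 39 of 49 probe sets (79.6%, against 49.1% of all), with a median of 1.18, which was 0.69 without double_null replicate 2. At an unadjusted p under 0.05, 10 were above 0 (20.4%, against 4.46%) and 0 below (against 6.01%). Limma called 0 members, as of all probe sets (0%), and the moderated test called 0, with 10 at an unadjusted p under 0.05. These 10 were 5 without p53_null replicate 1 and 6 without pRb_null replicate 1. The largest terms relative to their error were those of Iigp1 (2.24 ± 0.24, adjusted p = 0.20), Gbp2 (2.33 ± 0.35, adjusted p = 0.26) and Rsad2 by 1436058_at (3.02 ± 0.48, adjusted p = 0.27). Stat2 by 1421911_at had a term of 3.30 ± 0.79 (adjusted p = 0.35).

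Other genes of the pathway, from lists kept apart from the members, did not show 1 direction. No probe set of the interferon genes themselves, their receptors and kinases, the sensors that induce them or the restraining factors passed the adjusted threshold in double_null against control. Of 8 probe sets of interferon genes, 1 had an unadjusted p under 0.05, and it was lower. Over all probe sets 8.77% were higher and 9.91% lower at that threshold. The probe set of Ifng scored −0.52 and 2.11 in double_null, −0.57 and −0.89 in control, −0.95 and 0.36 in p53_null, and 0.36 and 0.11 in pRb_null, so 1 double_null array was high and the other was not. Ifnb1 scored −1.296 and 1.79 in the 2 control arrays, which spanned its whole range. Receptors, kinases and STATs had a median difference of 0.62 over 16 probe sets, of which 1 had an unadjusted p under 0.05, a higher one, and the kinase Jak1 had probe sets of opposite sign in p53_null against control, at 2.43 and −2.24. The inducing sensors and adaptors (25 probe sets, median −0.19) had 3 higher and 2 lower past that unadjusted threshold. The list of restraining factors (19 probe sets, median −0.22), which also holds the antiviral gene Isg20, had 0 higher and 3 lower, none of Isg20. Among these was 1 of 4 probe sets of the phosphatase Ptpn2, 1417140_a_at (−2.14 ± 0.40, limma, adjusted p = 0.12). In the other probe sets of Ptpn2 double_null overlapped control.

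The MHC class I genes, downstream targets of both interferon routes, also scored highest in double_null and lowest in p53_null. Their 21 probe sets had median scores of 1.23 and 0.37 in double_null, −0.89 and −0.67 in p53_null, −0.007 and 0.089 in pRb_null, and −0.056 and 0.11 in control. In double_null against p53_null all 21 were above 0 (against 51% of all probe sets), with a median of 1.57 and 9 at an unadjusted p under 0.05 (against 5.99%). B2m, the invariant light chain, scored 1.64 and 1.4997 in double_null, −0.54 and −0.39 in control, −0.58 and −0.49 in p53_null, and −0.15 and −1.01 in pRb_null by 1452428_a_at, 2.03 ± 0.32 above control (adjusted p = 0.095). In p53_null against control, among the 21, 7 lower ones and 2 higher ones reached an unadjusted p under 0.05 (against 7.23% and 7.38% of all probe sets). The class I heavy chains are polymorphic and alike, and 13 of these probe sets belong to H2-K1 and H2-D1.

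Whole skin contains immune cells, and their markers also scored higher in double_null. In a bulk extract more cells of a type and more RNA per cell cannot be told apart. The 19 probe sets of macrophage and monocyte markers had median scores of 1.21 and 0.37 in double_null and from −0.76 to −0.14 in the other 6 arrays, and 17 were above control (against 49.9% of all probe sets), 7 of them at an unadjusted p under 0.05 (against 8.77%). The 10 probe sets of MHC class II genes had 1.20 and 0.96 in double_null and from −0.68 to −0.27 elsewhere, with 9 above control. Of these Cd74, the invariant chain of class II, rose in double_null by 2.43 ± 0.09 over control (limma, adjusted p = 0.016). That call was not made by the moderated test, with a replicate block or in the fit to only the groups compared. The 6 probe sets of neutrophil markers had 0.46 and 1.29 in double_null and from −1.04 to 0.097 elsewhere. T and NK cell markers scored −0.064 and 1.08 in the double_null arrays, 0.38 and 0.012 in pRb_null and from −0.78 to −0.23 in control and p53_null. The 20 probe sets of dendritic and Langerhans cell markers had a median difference of −0.26 between double_null and control, and the 15 of keratinocyte markers −0.026. The interferon-gamma type median was higher in double_null replicate 2 than in replicate 1, at 1.41 against 0.45. So were the medians of T and NK, neutrophil, and dendritic and Langerhans cell markers. The median of all probe sets was also higher there, at 0.076 against −0.16. Macrophage, MHC class II, mast cell and keratinocyte medians were higher in replicate 1. Scores give no levels, so which defining markers are near 0 cannot be told, and the part of these cells in the result was not tested.

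**Figure D4:**
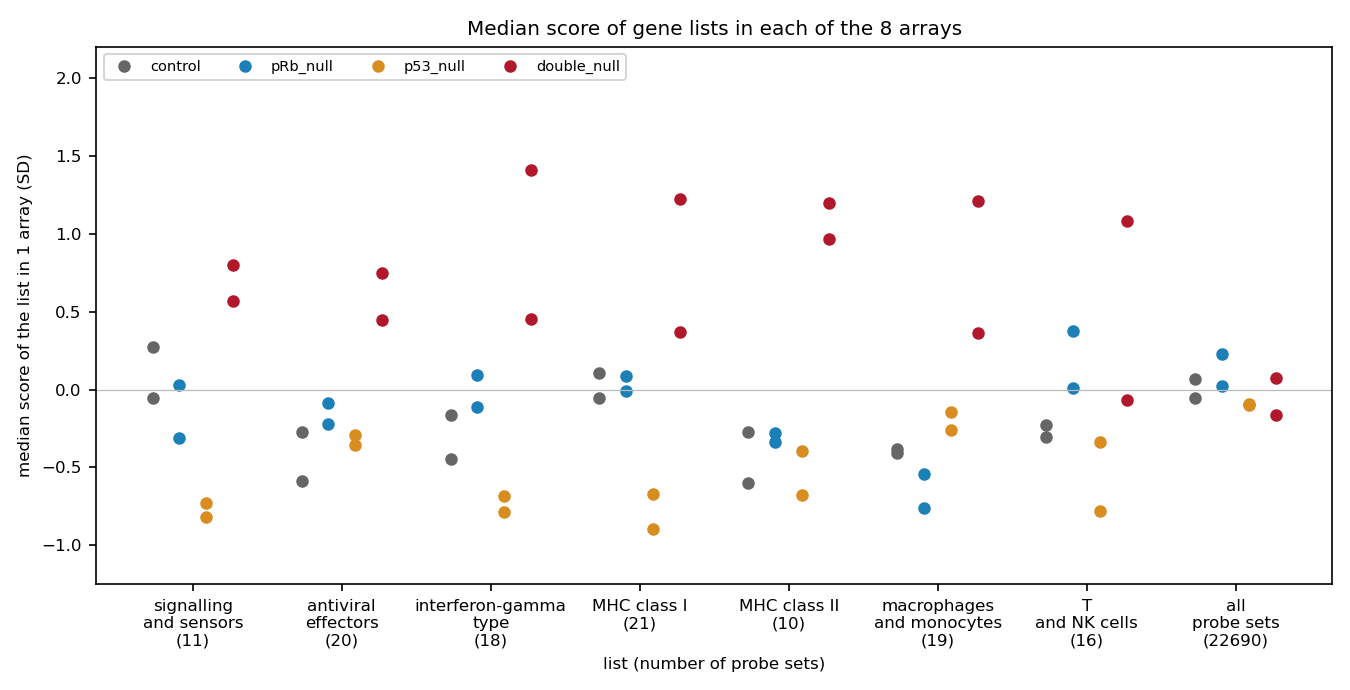
Median score (SD) of the 3 member sets, of MHC class I, of 3 immune marker lists and of all probe sets in each of the 8 arrays, colored by genotype, with the number of probe sets under each list. Both double_null arrays are above the other 6 in the 6 lists shown other than T and NK cells and all probe sets. Of the marker and pathway lists that are not plotted, only that of neutrophil markers followed this order.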

How the data were processed

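Each of the 8 microarrays was hybridized with RNA from whole skin. Per the submitters' processing notes, the authors used RMA (version not stated). What was deposited are scores: across the arrays all 22690 rows average 0 with an SD of 1, within 1e-06. Whether logarithms came before is not stated in them. Gene symbols are those of the platform's annotation, checked through Entrez numbers against RefSeq (GRCm38.p6): 20393 probe sets had 1 symbol, 691 several and 1606 none.

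The model, run on all 22690 probe sets in limma 3.58.1 (R 4.3.3), had 1 mean per genotype and left 4 residual degrees of freedom. Tests were two-sided, with Benjamini-Hochberg adjustment across the whole table in each comparison. The ordinary statistic was used because standardized rows tie the variances of probe sets together, and the moderated one was an alternative. The fit was tested on simulated data. Values in all arrays are given for called members, those with the smallest p (10 for double_null against control, 5 elsewhere) and genes picked by role, as a range where probe sets of a gene disagree. Ifng and Ifnb1 are named as ligands outside this rule. The members, lists and tests were chosen with earlier results of these data known. Plots were made with Python 3.11.15 and matplotlib 3.10.9. The alternatives were the moderated test, quantile normalization, array medians set to 0, a replicate block, 1 probe set per gene, only the groups compared, and leaving out each array.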

Additional observations from a re-analysis of the deposited data

How the results depend on the processing

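The number of arrays limits every count, and no depth or signal over background is available in the scores. Counts of called probe sets over the whole table depended on the setting. In the order pRb_null, p53_null and double_null against control, double_null against pRb_null and p53_null, and p53_null against pRb_null, the fit called 0, 27, 192, 92, 8 and 13. The moderated test called 0 in all, as did the fit to only the groups compared. Quantile normalization called 0, 0, 1, 1, 1 and 0. With array medians set to 0 the counts for p53_null against control, double_null against p53_null and p53_null against pRb_null were 5, 4 and 7. With 1 probe set per gene the counts were 3 for pRb_null and 17 for p53_null against control, 125 for double_null against control and 5 for double_null against p53_null. With a replicate block the count was 0 in every comparison, the 1 called member was lost, and no other member call changed. The numbers are not stated to pair the arrays, and deviations of same-numbered arrays correlated between −0.16 and 0.20. Such correlations of standardized scores cannot decide whether arrays were paired. For double_null against pRb_null, with a correlation of −0.16, a block with crossed numbers, chosen after seeing the data, called 3. Leaving out 1 array at a time gave 0 to 1, 0 to 5, 1 to 8, 0 to 6, 0 to 1 and 0 to 0, and 0 to 1 for the interaction, where the fit called 0.

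The member called in double_null against control, Iigp1, gave a member count of 1, which became 0 under the moderated test, quantile normalization, array medians set to 0, the replicate block, only the groups compared and each array left out, and stayed 1 with 1 probe set per gene. In the other comparisons the member count was 0 in every setting. Median differences of the members kept their sign in every setting run. With 1 probe set per gene they were 0.66 for pRb_null against control, 0.67 for double_null against pRb_null and −0.73 for p53_null against pRb_null, and with array medians set to 0 the last was −0.21. Leaving out 1 array gave 0.052 to 0.46 for pRb_null, −0.42 to −0.27 for p53_null and 0.66 to 1.29 for double_null against control, 0.36 to 1.24 and 1.14 to 1.46 for double_null against pRb_null and p53_null, −0.62 to −0.40 for p53_null against pRb_null and 0.69 to 1.40 for the interaction. Of 549 refits of member differences, those with the smallest p in each comparison, 0 changed sign. The moderated test, the replicate block and the fit to only the groups compared leave a difference of means, and the members' median, unchanged. Using 1 probe set per gene, or leaving out an array of another group, also leaves a single difference unchanged. The remaining refits were of differences chosen for a small p, so the count of 0 cannot show that signs are stable. The low agreement of probe sets of 1 gene (Tap1, Trim25, Rsad2, Stat2, Eif2ak2) limits each value read from a single one.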

Other observations

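Mast cell markers did not follow the interferon response genes. In both genotypes without p53, 9 of their 10 probe sets were above control (against 49.9% of all probe sets in double_null and 45.7% in p53_null), with median differences of 1.06 in double_null and 2.00 in p53_null, and in double_null against p53_null 6 were lower and 0 higher at an unadjusted p under 0.05 (against 5.91% and 5.99%; median −0.80). The tryptase Tpsab1 differed from control by 2.38 ± 0.18 in p53_null (limma, adjusted p = 0.074), where the interferon response genes had their lowest scores. Neutrophil markers (6 probe sets) were above control in double_null in 6 of 6, with a median of 1.45 and 0 at an unadjusted p under 0.05. Gzmb, a protease of cytotoxic T and NK cells, differed by 2.49 ± 0.29 between double_null and pRb_null (limma, adjusted p = 0.082). The list of T and NK cell markers did not move with it. Its median difference there was 0.069, with 8 of 16 above 0 (against 46.5% of all probe sets). Gzma, of the same list, differed by −1.36.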
